A study of Mus musculus with 4 samples.

Results

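The forkhead (Fox) genes encode transcription factors that share the forkhead, or winged helix, DNA-binding domain. Their mRNA was followed in whole brain of C57BL/6J mice at postnatal day 1, after the dams had received titanium dioxide nanoparticles (TiO2-NP) during pregnancy. A gene was taken into the family where a RefSeq accession of the array belonged to a gene symbol of the form Foxa to Foxs with a number. This gave 44 genes of 20660 named genes, measured by 55 probes, and 44 was also the number of such genes in the RefSeq gene table used for the names. Where a gene had several probes, that with the highest mean log2 signal over the arrays stood for it, and the others served as a check.

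Forkhead factors are best known for fixing regional and cell identity in the embryo. In the brain, FoxP factors mark neurons of the striatum and of the deep cortex, FoxA factors pattern the floor plate and the midbrain dopamine neurons, and Foxj1 switches on the genes of motile cilia in the ependyma. FoxO factors such as Foxo1 are held out of the nucleus when insulin signals through Akt. FoxC, FoxF and related members belong to the meninges, the pericytes and the vessels.

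The study asked whether exposure of the dam alters gene expression and DNA methylation in the brain of the offspring, and only expression was analysed here. There were 4 groups, from the crossing of 2 exposures (Sham and TiO2-H) with the sex of the offspring. Dams of the TiO2-H groups were given 25 μL of a suspension by the trachea, which is 100 μg of TiO2-NP per mouse, and dams of the Sham groups the vehicle without particles. The protocol puts this on gestational day 10.5, while the sample descriptions give day 14. Each group was 1 pool of total RNA on 1 one-color array, with 2 offspring from each of 5 dams (Sham) or 6 dams (TiO2-H). Spread between animals or litters was therefore not measured.

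On each array the 75th percentile of the processed signal, an intensity in which brighter means more target, was between 795 and 871, and 56.2% to 61.2% of spots were well above background by the scanner software's own criterion. All differences below are log2 differences after division of each array by this percentile, while signals per array are printed as deposited. All 13 of 13 genes that mark neurons, glia and progenitors were well above background on the 4 arrays. Of the Y-linked mRNAs, Eif2s3y read 3519 and 419.5 on the Sham arrays labelled male and female, and 6.40 and 4345 on the TiO2-H arrays labelled male and female, where the value of 6.40 was not well above background. This goes against the sex labels of both TiO2-H arrays, so comparisons within a sex are given as arrays labelled male and arrays labelled female. The Sham female value of 419.5 was well above background, so that array carried Y-linked signal too. It is the baseline of the female-labelled comparisons, and the source of this signal was not tested. Both Sham arrays lay in one row of the slide and both TiO2-H arrays in the other, so that row and exposure cannot be told apart.

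Of the 44 forkhead genes, 31 were well above background on all 4 arrays, which is 70.5% against 70.8% of all named genes. Foxe3, Foxj2, Foxl1, Foxo4 and Foxp3 were so on 1 to 3 arrays. Foxa3, Foxb2, Foxe1, Foxf1, Foxi2, Foxn1, Foxo3 and Foxr1 were not well above background on any of the 4. These 8 include factors known from liver (Foxa3), thyroid (Foxe1), lung (Foxf1) and thymus (Foxn1), and also Foxo3, whose probe read 10.4, 12.4, 26.4 and 22.8. Here and below, 4 signals are given as male then female for Sham, followed by male then female for TiO2-H.

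No forkhead gene passed the test of exposure. With both TiO2-H arrays set against both Sham arrays in limma, 0 of 36 members that could be tested and 0% of 16154 genes passed an adjusted p of 0.05, and the lowest adjusted p was 0.26 for the members and for all genes alike. At an unadjusted p under 0.05, 4 of the 31 members well above background on all arrays were found (Foxo6, Foxp1, Foxp2 and Foxq1), or 12.9%, against a background of 17.7% of 14633 genes. Both TiO2-H arrays lay above both Sham arrays for 9 of these 31 members, or 29.0%, against 30.2% of all genes. Both lay below for 4 of 31, or 12.9%, against 26.6%. The median difference over the 31 members was 0.017, from -0.20 to 1.00, and over all genes it was 0.0067. With 2 pools against 2, an exact permutation test of a single gene cannot give a p below 0.333. In whole-brain RNA, fewer cells of a type and less RNA per cell cannot be told apart.

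**Figure D1:**
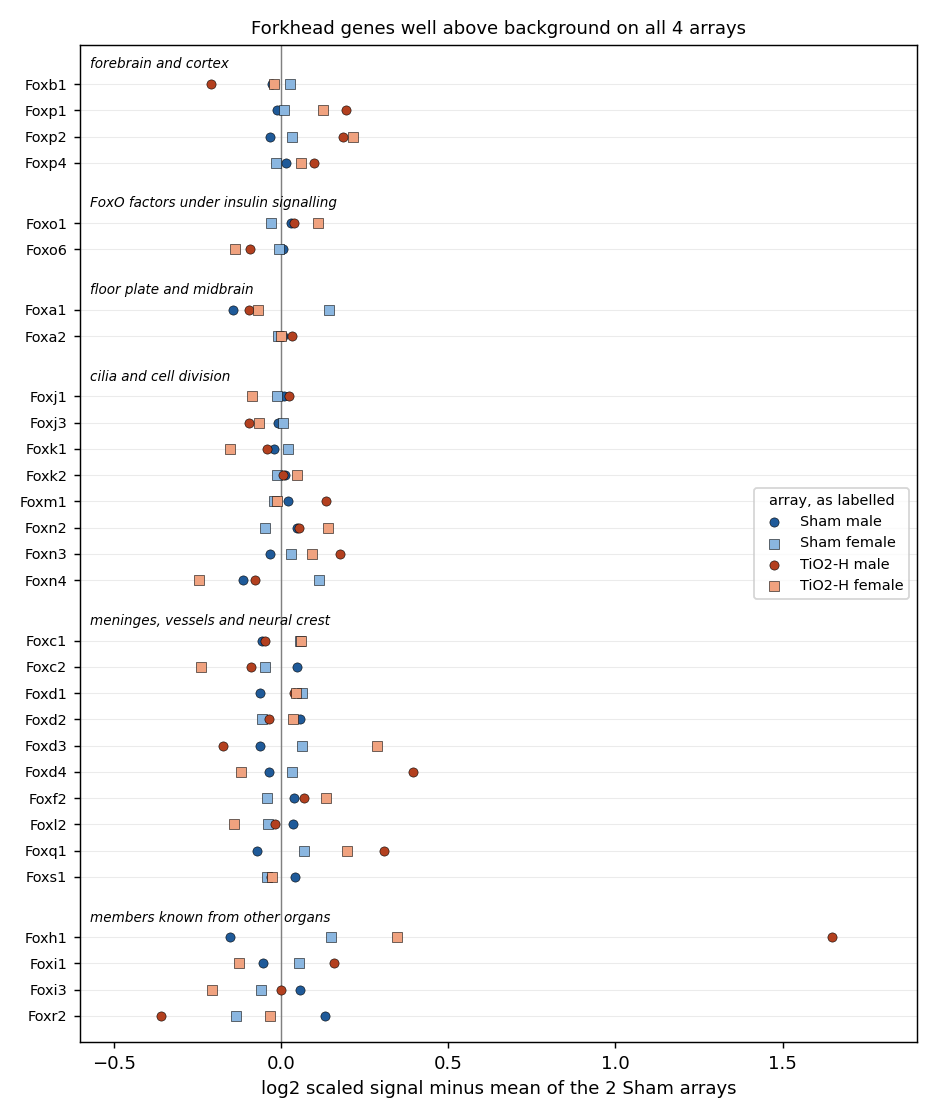
Each row is a forkhead gene well above background on all 4 arrays, under 1 role assigned to it for this report. Foxl2, best known from ovary and pituitary, was placed under meninges, vessels and neural crest, and Foxk1 and Foxn4 under cilia and cell division. Each point is 1 array, as the log2 scaled signal minus the mean of the 2 Sham arrays. Most points lie close to 0, both TiO2-H points of Foxp1, Foxp2, Foxq1 and Foxn3 lie to the right of both Sham points, and the TiO2-H male point of Foxh1 stands far from the rest.

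The FoxP genes of the forebrain read higher on both TiO2-H arrays. For Foxp2, which is needed in the circuits of vocal and motor learning, the signals were 718.8, 738.5, 896.2 and 918.2. Both TiO2-H values lay above both Sham values, by 0.20 ± 0.043 on the log2 scale (limma, SE, 2 arrays a group, adjusted p = 0.26). The 2 Sham arrays differed from each other by 0.066 and the 2 TiO2-H arrays by 0.030. For Foxp1, a factor of striatal projection neurons and of cortical neurons, the signals were 16588, 16523, 20464 and 19593, again with no overlap between exposures. The difference was 0.16 ± 0.043 (limma, adjusted p = 0.26). Foxp4, its close relative, read 11808, 11340, 13380 and 13079, higher on both TiO2-H arrays by 0.079 ± 0.039 (limma, adjusted p = 0.37), and its sign turned when the gene's 3 probes were averaged (-0.0050). Of the 13 marker genes of neurons, glia and progenitors, 8 lay above Sham on both TiO2-H arrays and 1 below, with a median of 0.048. All genes gave 30.2% above and 26.6% below. Among the markers, named after their values were seen, Snap25 of the synapse differed by 0.19, Map2 of dendrites by 0.16 and Fabp7 by 0.18. Tubb3 lay below Sham on both TiO2-H arrays (-0.055), and Rbfox3 (-0.021), Stmn2 (-0.0061) and Gad1 (-0.0060) overlapped. The part of these markers in the FoxP differences was not tested.

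The other probes of these genes were compared next. A second Foxp2 probe read 147, 144, 182 and 193, and its difference was 0.25 ± 0.046 (limma, adjusted p = 0.26), also with both TiO2-H arrays on top. A second probe to the same Foxp1 accession read 4335, 4213, 5201 and 5042, with a difference of 0.15 ± 0.040 (limma, adjusted p = 0.26). Another Foxp1 probe, designed to another accession, read between 98.0 and 120, and there the exposures overlapped (0.071 ± 0.064). Of the other 2 Foxp4 probes, one gave 0.060 ± 0.040 without overlap, and the one to another accession gave -0.15 ± 0.11 with overlap at signals of 81.5 to 98.2. The scanner software's own error of a single spot, on the log2 scale, was 0.14 for the brightest Foxp1 probe and 0.19 for the last Foxp4 probe, beside differences of 0.060 to 0.25 for the probes without overlap. No scaling tried turned the sign of Foxp1 or Foxp2, which ranged from 0.13 to 0.27 and from 0.17 to 0.32 over the 16 alternative settings run for them.

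**Figure D2:**
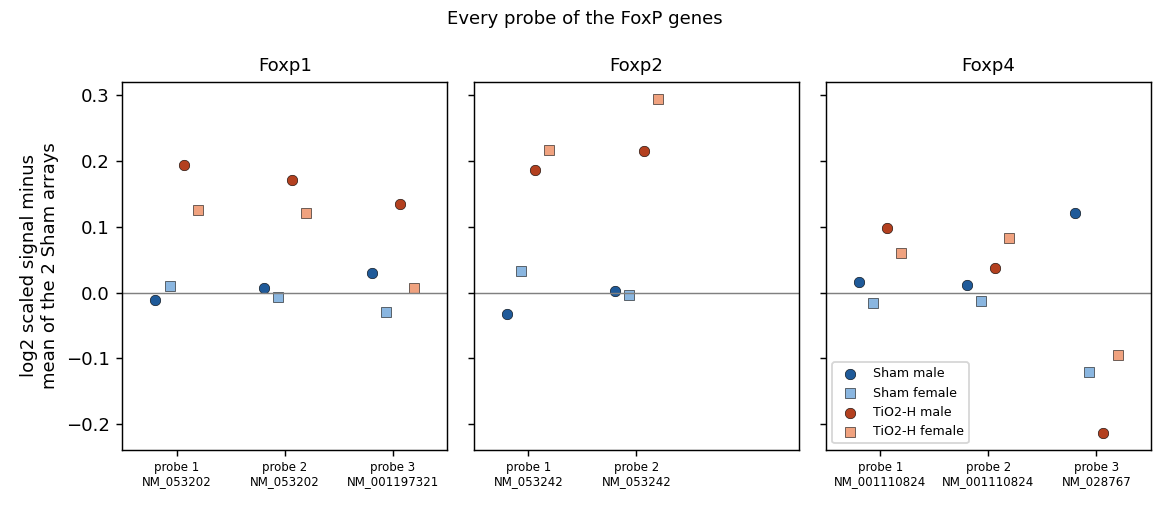
Every probe of Foxp1, Foxp2 and Foxp4, numbered by falling signal within a gene, with the log2 scaled signal of each array minus the mean of the 2 Sham arrays on the vertical axis. Both probes of Foxp2 and the first 2 probes of Foxp1 and of Foxp4 have both TiO2-H points above both Sham points, and in probe 3 of Foxp1 and of Foxp4 they overlap.

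Of the FoxP genes that read higher on both TiO2-H arrays, Foxp2 had the largest difference, but no promoter window was found for it. The 250 bases before the start of a transcript are shown for Foxp1 and Foxp4, because mammalian DNA methylation is laid down at CpG dinucleotides. They come from RefSeq (build GRCm38.p6, minus strand), run 5′ to 3′ along the gene, and CpG dinucleotides are in capitals. Foxp1 had 3 starts, with 34 CpG at chr6:99028299-99028548, 3 CpG at chr6:99266516-99266765 and 11 CpG at chr6:99520994-99521243, and Foxp4 had 27 CpG at chr17:47924633-47924882.
Foxp1, first window: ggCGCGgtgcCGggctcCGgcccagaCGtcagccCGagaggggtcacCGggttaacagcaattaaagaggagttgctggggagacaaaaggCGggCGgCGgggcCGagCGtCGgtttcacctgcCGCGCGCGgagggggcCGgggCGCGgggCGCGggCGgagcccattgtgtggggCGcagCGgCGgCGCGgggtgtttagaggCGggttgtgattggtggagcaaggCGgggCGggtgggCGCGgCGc
Foxp1, second window: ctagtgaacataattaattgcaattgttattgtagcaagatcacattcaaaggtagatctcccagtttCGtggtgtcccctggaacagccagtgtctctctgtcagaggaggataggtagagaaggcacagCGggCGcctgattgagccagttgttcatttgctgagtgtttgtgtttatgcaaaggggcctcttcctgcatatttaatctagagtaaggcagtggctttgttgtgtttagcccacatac
Foxp1, last window: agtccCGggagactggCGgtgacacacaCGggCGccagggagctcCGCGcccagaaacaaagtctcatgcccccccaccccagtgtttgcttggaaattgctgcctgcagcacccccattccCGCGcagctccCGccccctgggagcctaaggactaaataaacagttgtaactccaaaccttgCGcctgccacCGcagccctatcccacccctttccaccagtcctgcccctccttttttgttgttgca
Foxp4: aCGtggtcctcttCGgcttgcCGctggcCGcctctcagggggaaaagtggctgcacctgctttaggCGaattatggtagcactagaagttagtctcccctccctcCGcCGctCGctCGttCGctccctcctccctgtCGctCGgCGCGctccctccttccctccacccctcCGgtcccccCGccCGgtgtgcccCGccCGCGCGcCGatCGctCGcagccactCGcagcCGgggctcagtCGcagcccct

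A window was found for 28 of the 44 members, 33 windows in all, and their median was 16 CpG (3 to 48) against 6 over all 32851 windows of the same length, with a median GC content of 62.0% against 52.4%. The forkhead motif TGTTTAC, searched on both strands, was in 1040 of all windows, or 3.17%, and the longer form TTGTTTAC, which contains it, in 350, or 1.07%. Of the 33 forkhead windows 1 held them, that of Foxa1 at chr12:57546112-57546361 on the minus strand, where the capitals below mark the shorter motif read on the other strand.
Foxa1: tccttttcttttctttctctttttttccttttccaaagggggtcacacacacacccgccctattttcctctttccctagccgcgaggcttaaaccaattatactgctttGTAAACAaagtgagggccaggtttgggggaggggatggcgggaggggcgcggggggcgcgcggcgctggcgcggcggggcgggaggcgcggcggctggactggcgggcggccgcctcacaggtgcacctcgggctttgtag
A match of letters is a description and not a bound site.

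Foxb1, a factor of the mammillary region and thalamus, had overlapping exposures and read 806.6, 822.4, 762.2 and 870.7, with the array labelled TiO2-H male the lowest and a difference of -0.11. Over the 5 forebrain members well above background on all arrays, 3 were without overlap above Sham and 0 below, where all genes gave 30.2% above and 26.6% below, and the median was 0.079.

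Genes known as markers of the striatal neurons that Foxp1 and Foxp2 specify were set beside them. Of 17 such genes on the array, 0 passed limma at an adjusted p of 0.05 and 6 were at an unadjusted p under 0.05, against 17.7% of all genes. Of the 17, 11 lay above Sham on both TiO2-H arrays and 3 below, against 30.2% and 26.6% of all genes, with a median difference of 0.11. The 3 below, named like the next 2 genes after their values were seen, were Ppp1r1b (-0.041), Penk (-0.058) and Tac1 (-0.076), all products of striatal projection neurons, and the dopamine receptor genes Drd1 (-0.082) and Drd2 (-0.11) overlapped. Of the list only Ikzf1, a zinc-finger factor also of lymphocytes, was 1.5-fold higher on an array pair, with 55.9, 76.1, 101 and 85.1, which is 0.76 on the male-labelled pair and 0.030 on the female-labelled pair.

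The FoxO genes went different ways. Foxo1, a main target of insulin signalling, read 2242, 2112, 2414 and 2550, with both TiO2-H arrays above both Sham arrays after scaling, by 0.075 ± 0.049 (limma, adjusted p = 0.47). The array labelled TiO2-H male was above the Sham male array by just 0.0083. A second Foxo1 probe gave -0.051 with overlap, so the probes disagreed in sign. Foxo6, the FoxO gene most typical of brain, read 16979, 16516, 16980 and 16503, nearly equal before scaling and lower on both TiO2-H arrays after it, with a difference of -0.11 ± 0.038 (limma, adjusted p = 0.28). A second Foxo6 probe was also lower on both (-0.13), and with no scaling between arrays the difference of the first was -0.00053.

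Foxo4 was near background. It read 30.7, 55.3, 7.19 and 8.12, and cleared the background on the array of Sham females alone. On the arrays labelled female it was at least 2.60-fold lower with TiO2-H, a bound because the TiO2-H spot was not well above background, and the fit over 4 arrays gave -0.77 ± 0.36 (limma, adjusted p = 0.36). The Sham female array was also 1.84-fold above the Sham male array, with the latter at its own dim signal, so that the pools of 1 exposure were apart as well. On none of the arrays was its second probe well above background.

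Of 27 well-measured genes of the insulin and FoxO pathway, from the receptor Insr through the Akt kinases to FoxO targets such as Cdkn1a, 0 passed limma and 8 were at an unadjusted p under 0.05. Both TiO2-H arrays were above Sham for 14 and below for 5, with a median of 0.063. All genes gave 17.7% at that unadjusted p, 30.2% above and 26.6% below. None of the 27 genes was past 1.5-fold or 0.67-fold on the arrays of either sex label.

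Foxa1 and Foxa2, the factors of the floor plate and of midbrain dopamine neurons, did not separate the exposures. Foxa1 read 343.1, 410.9, 379.9 and 388.4, where the Sham arrays were the lowest and the highest. Foxa2 read 319.0, 309.7, 347.2 and 341.2, a difference of 0.017 ± 0.036. Of 13 well-measured floor plate and dopamine genes, 0 passed limma, 2 were at an unadjusted p under 0.05, 5 lay above, 2 below and the median was 0.051. All genes gave 17.7% at that unadjusted p, 30.2% above and 26.6% below.

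Among the members grouped under cilia and cell division, Foxn3 had the largest difference without overlap. Foxn3, a repressor linked to the cell-cycle checkpoint, read 947.7, 971.2, 1173 and 1109, higher on both TiO2-H arrays by 0.13 ± 0.053 (limma, adjusted p = 0.32). Foxn2 read 259.0, 237.8, 278.3 and 296.6 and lay above by 0.097 ± 0.060, though the male-labelled arrays differed by 0.0055. Foxj3 read 13885, 13775, 13984 and 14351, and Foxk1, which represses autophagy genes, read 1035, 1045, 1092 and 1016. After scaling both lay below Sham on both TiO2-H arrays, by -0.080 ± 0.036 and -0.097 ± 0.056, and without scaling both signs turned (0.035 and 0.018).

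Foxj1, the master factor of motile cilia, read 1143, 1106, 1235 and 1148, and the exposures overlapped at -0.032. Foxm1, which drives genes of mitosis, read 219.9, 209.6, 254.8 and 231.1, with overlap at 0.062. Foxk2 read 5035, 4858, 5363 and 5543 and Foxn4, a factor of retinal progenitors and spinal interneurons, read 223.2, 256.2, 244.8 and 218.8. Foxk2 differed by 0.026, while Foxn4 was lower on the female-labelled TiO2-H array by -0.36 and about level on the male-labelled pair (0.036).

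Of 12 well-measured motile cilia genes, 0 passed limma and 2 were at an unadjusted p under 0.05, 7 lay above Sham on both TiO2-H arrays and 1 below, and the median was 0.13, against the -0.032 of Foxj1 itself. Dnah5, a dynein heavy chain of the outer arm, read 40.6, 38.7, 71.9 and 64.1, and the 2 exposures stood apart by 0.66 ± 0.075 (limma, adjusted p = 0.26). Ccdc39, of the inner arm assembly, read 180, 77.1, 115 and 135, and so was lower on the male-labelled pair (-0.74) and higher on the female-labelled pair (0.68). Pifo read 192, 588, 197 and 188, where the Sham female array alone stood out. For the choroid plexus, another ciliated epithelium, 9 genes were measured on all arrays, of which 0 passed limma, 1 was at an unadjusted p under 0.05, 4 lay above and 1 below, with a median of -0.020. Of 14 well-measured division genes of Foxm1, 0 passed limma, 2 were at an unadjusted p under 0.05, 3 lay above and 5 below, with a median of -0.064. Beside the cilia, choroid plexus and division lists, all genes gave 17.7% at that unadjusted p, 30.2% above and 26.6% below.

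Of the members grouped under meninges, vessels and neural crest, Foxq1 had the largest difference without overlap among those measured on all arrays. Foxq1, a factor of brain endothelium and of hair, read 263.1, 284.4, 365.8 and 340.0, higher on both TiO2-H arrays by 0.25 ± 0.076 (limma, adjusted p = 0.27). The difference was 0.38 on the male-labelled pair and 0.13 on the female-labelled pair, the latter smaller than the 0.14 between the Sham arrays. Its neighbours in the genome are Foxf2 and then Foxc1, with 0 protein-coding genes between. Foxf2, a pericyte factor, read 197.6, 183.4, 215.6 and 226.5, higher by 0.10 ± 0.052 without overlap, and turned to -0.039 with the normexp background correction. Foxc1, the meningeal factor at the end of the cluster, read 740.4, 786.6, 797.9 and 863.2, with overlap and a difference of 0.0065.

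Foxc2 and Foxl1, which are neighbours with 0 protein-coding genes between them, both read lower with TiO2-H. Foxc2, a factor of lymphatic vessels and mesenchyme, read 389.8, 358.4, 379.4 and 343.8, lower on both TiO2-H arrays after scaling by -0.16 ± 0.075 (limma, adjusted p = 0.35). With no scaling the Foxc2 difference was -0.049 and the exposures overlapped. Foxl1, known from gut mesenchyme, read 322.6 on the Sham male array and 14.4 and 11.0 on the TiO2-H male and female arrays, where it was not well above background. Its Sham female spot was marked as an outlier by the scanner software and dropped, and read 269. On the arrays labelled male Foxl1 was thus at least 11.7-fold lower, a bound, and the fit on the 3 remaining arrays, with a single Sham array, gave -3.72 (limma, adjusted p = 0.26). This size depends on how dim spots are treated, from -2.45 with the normexp correction to -4.78 with no floor. With the outlier spot kept the fit gave -3.60, with both Sham arrays far above both TiO2-H arrays. Foxl1 had 1 probe and 1 spot on each array, so no second measurement stood beside it. Foxf1, next to Foxc2 with 1 protein-coding gene between, was among the members not well above background anywhere.

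The other members of this group overlapped between exposures. Foxd1, of pericytes and of the diencephalon, read 141.3, 151.3, 162.4 and 163.7, and Foxd2 read 219.6, 199.0, 220.6 and 232.6. Foxd3, the neural crest factor, read 77.1, 82.5, 76.5 and 105.6, and Foxd4 read 79.6, 82.0, 114.8 and 80.6. After scaling, Foxd3 was highest on the array labelled TiO2-H female and Foxd4 on that labelled TiO2-H male, each by more than the Sham arrays differed. Foxs1, a pericyte gene, read 226.2, 209.6, 230.4 and 231.9, a difference of -0.028.

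Foxl2 needs its 2 probes read apart. It is best known from ovarian granulosa cells and the pituitary, and its brighter probe read 26915, 25066, 27731 and 25584 while a second probe to the same accession read 77.6, 84.8, 90.7 and 82.7. In neither probe were the exposures apart (-0.078 ± 0.064 and -0.020 ± 0.086). Of 13 pituitary genes, 7 were not well above background on any of the arrays, among them the hormone genes Prl, Cga, Tshb and Fshb, and the summed scaled signal of the 5 measured on all arrays was between 1.14 and 1.65 times the 75th percentile. Pomc read 572, 570, 956 and 590, with the array labelled TiO2-H male apart from the other 3. Whether pituitary tissue bears on the Foxl2 signal was not tested.

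Of 18 meningeal and mural genes, all well measured, 0 passed limma, 3 were at an unadjusted p under 0.05, 9 lay above and 4 below Sham, and the median was 0.074. Only Anpep was past a threshold, at 931, 629, 661 and 683, with the Sham male array apart. Markers of blood lay the other way. Of 7 well-measured blood genes 0 passed limma, 4 were at an unadjusted p under 0.05, 0 lay above and 6 below, with a median of -0.23. The summed scaled signal of these blood genes was 319, 298, 268 and 274 times the 75th percentile. Beside the meningeal and blood lists, all genes gave 17.7% at that unadjusted p, 30.2% above and 26.6% below. The part of blood content in the differences of the vascular members was not tested.

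Members grouped as known from other organs, a group without Foxl2, were dim, and their arrays scattered more. Foxh1, a partner of Smad proteins in nodal signalling of the early embryo, read 51.9, 62.8, 193 and 78.7. On the arrays labelled male it was 3.48-fold higher with TiO2-H and on those labelled female 1.15-fold, and the 2 TiO2-H arrays were apart from each other by 2.46-fold. The difference over the 4 arrays was 1.00 ± 0.51 (limma, adjusted p = 0.39). Leaving out arrays moved it, and it was 0.35 without the array labelled TiO2-H male and 1.65 without that labelled TiO2-H female. Foxr2 read 67.8, 55.4, 51.7 and 65.0, Foxi1 read 66.6, 70.4, 82.6 and 68.1, and Foxi3 read 45.0, 40.7, 46.2 and 40.2. In these 3 genes the exposures overlapped, and of them Foxr2 differed most between the pairs, with -0.49 on the male-labelled and 0.10 on the female-labelled arrays.

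Foxp3, the factor of regulatory T cells, was well above background on 1 array. It read 31.0, 28.0, 23.4 and 174.8, at least 5.03-fold higher on the array labelled TiO2-H female than on Sham female. The array labelled TiO2-H male did not share this, and the fit gave 1.08 ± 0.98 (limma, adjusted p = 0.58). Of 7 T cell genes, 3 (Cd3d, Cd3g and Ctla4) lacked any spot well above background, and the summed scaled signal of the 3 measured on all arrays was 7.39, 7.57, 8.06 and 7.38 times the 75th percentile, not higher on the array where Foxp3 was high, although most of that sum was Cd4. Il2ra, which regulatory T cells carry, was named after its values were seen. It read 16.3, 8.31, 24.6 and 32.6 and was well above background on the array labelled TiO2-H female alone, as Foxp3 was. The lowest signal well above background was 23.3 on that array and 31.7 on the Sham female array. With dim spots raised to that limit, Il2ra was not higher on the female-labelled pair (-0.091). Foxe3, the lens factor, was well above background on the array labelled TiO2-H male alone, at 36.8, and was at least 1.13-fold higher there. Foxj2 read 23.4, 51.9, 38.0 and 37.4, the Sham male value not well above background. It was 1.52-fold lower on the arrays labelled female and at least 1.17-fold higher on those labelled male, while the TiO2-H arrays differed by -0.027.

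**Figure D3:**
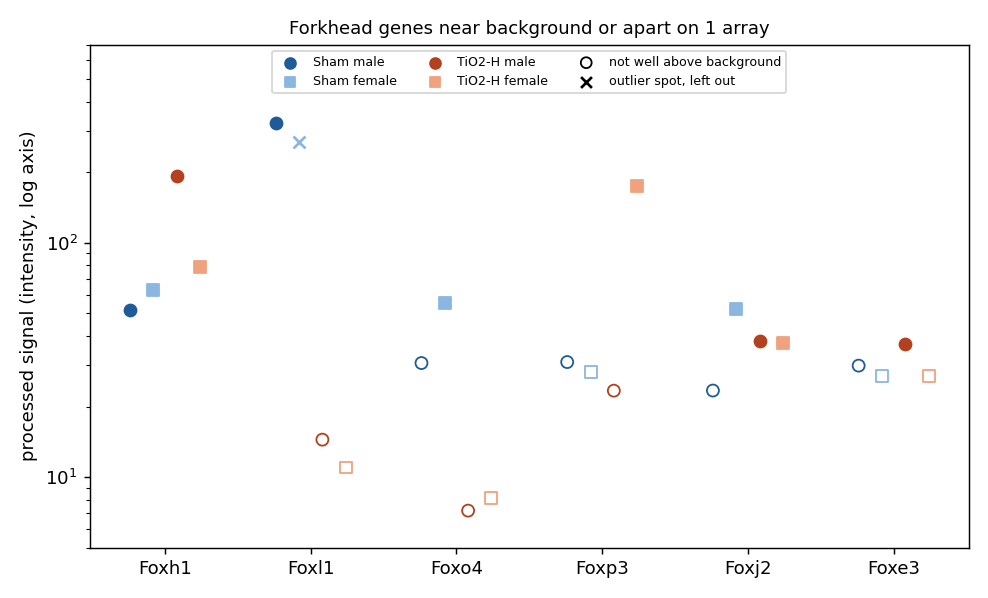
Processed signal on a log axis of 6 forkhead genes on each of the 4 arrays, with open symbols where the spot was not well above background and a cross for the Foxl1 spot that was left out as an outlier. Foxl1 was bright on the Sham arrays, at 322.6 for Sham male, and at or below 14.4 on both TiO2-H arrays, while Foxh1 and Foxp3 were each set apart by 1 TiO2-H array.

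With the study's threshold of 1.5-fold or 0.67-fold and 1 array a group, no test was possible within a sex label. On the arrays labelled male, 1 of 34 members compared was past 1.5-fold (Foxh1), against 2.06% of 15591 genes, and 1 was at or under 0.67-fold (Foxl1), against 1.83%. On the arrays labelled female, 1 of 34 was past 1.5-fold (Foxp3), against 1.59% of 15770 genes, and 2 were at or under 0.67-fold (Foxj2 and Foxo4), against 1.97%. Between the 2 Sham arrays, where exposure did not differ, 2 of 33 members were past 1.5-fold (Foxj2 and Foxo4), against 1.84% of 15294 genes, and 0 were at or under 0.67-fold, against 1.75%. The 2 members called lower on the arrays labelled female were thus the 2 members called between the Sham arrays, and both comparisons share the Sham female array. With each TiO2-H array set against the Sham array of the other sex label, the members past the thresholds for TiO2-H male were Foxh1 (higher, against 1.96% of 15548 genes) and Foxo4 (lower, against 1.69%). For TiO2-H female they were Foxp3 (higher, against 1.68% of 15784 genes) and Foxl1 (lower, against 1.95%), and Foxj2 was in neither.

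Of the 31 members measured on all arrays, 12 (38.7%) were higher with TiO2-H under both sex labels, against 36.4% of all genes, and 7 (22.6%) were lower under both, against 32.7%. The spread of the differences over these members, as a robust SD, was 0.14 on the male-labelled and 0.17 on the female-labelled arrays, while the arrays of 1 exposure differed with a robust SD of 0.12 (Sham) and 0.13 (TiO2-H). Over all genes these were 0.13, 0.14, 0.087 and 0.081.

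**Figure D4:**
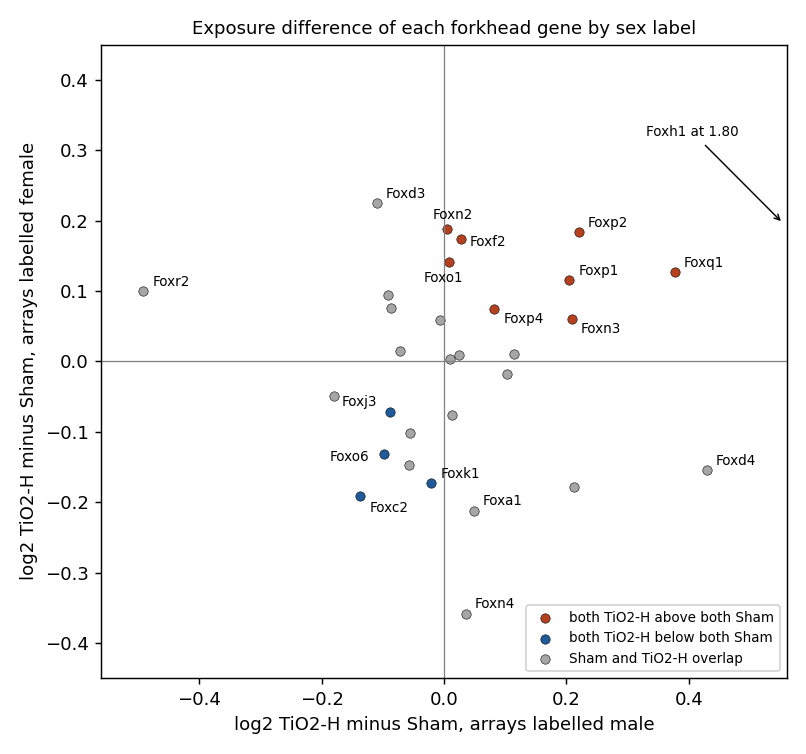
Each point is 1 of the 31 forkhead genes, with the log2 difference TiO2-H minus Sham on the arrays labelled male on the horizontal axis and on those labelled female on the vertical axis, colored by whether the exposures overlap. Foxp1, Foxp2, Foxq1 and Foxn3 lie in the upper right, Foxc2 and Foxo6 in the lower left, Foxr2 and Foxd4 have opposite signs, and Foxh1 lies beyond the right edge at 1.80.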

How the data were processed

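Pooled brain RNA of each of the 4 groups was hybridized to 1 one-color array. The authors deposited the scanner output and a table of the series, both as intensity. Per the file headers, the processed signal was made with Feature Extraction 10.10.1.1, which subtracts background and does not scale between arrays. The table of the series held the same intensity, within 0.1%, for all 59305 non-control spots.

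For this report, processed signals were divided by the 75th percentile of their array and taken to log2, spots marked as outliers (138 to 181 an array) were left out, and no spot was saturated. The lowest signal well above background was 23.3 to 31.7. A spot not well above background was set to the higher of this value and its own, and a fold with such a spot is a bound. RefSeq accessions were named through a gene table of GRCm38.p6, which held 21465 of 22765 of them (94.3%). The scanner grid names mm9, so gene positions are not given, and promoter windows carry the build of their own table.

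Genes well above background on at least 1 array (16154) were tested with limma 3.58.1 in R 4.3.3, Benjamini-Hochberg adjustment over all genes and exposure as the only term. Values of a member's other probes come from the same fit over every probe. With 1 array per group, no test was made within a sex label, so that precision is limited by how few arrays there are. The remaining computation ran in Python 3.11.15 (pandas 2.3.3 with numpy 2.4.6). Only the limma fit and the 1.5-fold or 0.67-fold rule were tried on simulated data, with changes larger than most member differences given here. The members, the companion lists and the tests were chosen with earlier results of these data known. Every member well above background on at least 1 array was named, with signals for each array for those well above background on all 4 or past 1.5-fold or 0.67-fold, and of the companion lists genes past these folds and well above background on both arrays. Alternatives covered scaling, background correction, source table, filter, floor, probe choice, outlier spots, sex as a term, variance trend, array left out, array pairing and fold threshold. Methylation arrays were not analysed here, and the values of 1 member and of 1 companion gene are not reported here.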

Additional observations from a re-analysis of the deposited data

Results flagged for a closer look

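Foxj2 differed in direction between the sex labels, with -0.60 (log2 TiO2-H minus Sham) on the arrays labelled female and 0.22 on those labelled male, where the Sham male spot was not well above background and the value is a bound. With 1 array a group this difference between the labels was not tested.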

How the results depend on the processing

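No setting gave a member or any other gene an adjusted p under 0.05 in limma. Over the 17 alternatives the lowest adjusted p of any gene was between 0.076 and 0.41, and the genes at an unadjusted p under 0.05 numbered 1646 (without the TiO2-H female array) to 5088 (no scaling), against 2815. With no scaling the median of all genes moved up by 0.11. Members past 1.5-fold or 0.67-fold numbered 2 on the arrays labelled male, 1 where both arrays had to be well above background and 6 with no filter. On the arrays labelled female they numbered 3, 1 and 7. All genes higher and lower on the male-labelled arrays were 321 and 285 (53.0% higher), 444 and 235 with no scaling (65.4%), 237 and 337 with quantile normalization (41.3%), 141 and 216 with normexp (39.5%), 127 and 113 with both arrays above background, 1259 and 702 with no filter (64.2%) and 481 and 306 with no floor (61.1%). On the female-labelled arrays they were 250 and 310 (44.6%), 448 and 243 (64.8%), 232 and 326 (41.6%), 96 and 183 (34.4%), 116 and 159 (42.2%), 994 and 2424 (29.1%) and 483 and 310 (60.9%) in the same order. Signs turned for Foxj3 (0.035) and Foxk1 (0.018) with no scaling, for Foxf2 with normexp (-0.039), for Foxp4 with the mean of its probes (-0.0050) and for Foxj2 without the Sham female array (0.21, from -0.59 to 0.21 with each array left out). The cause was not tested beyond the change of setting itself. Members without overlap numbered 9 above and 4 below Sham (all genes 30.2% and 26.6%), and 19 and 0 with no scaling (65.7% and 4.38%), 11 and 5 with quantile normalization (30.3% and 26.1%), 10 and 9 with normexp (29.2% and 27.5%) and 7 and 4 with probes averaged (29.4% and 27.3%), settings chosen after the data were seen. With arrays paired by sex, as labelled or crossed within TiO2-H, as a block in limma, no gene passed either. Each value rests on 1 spot per probe and array.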
